A study of Astyanax mexicanus with 6 samples.

Results

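The genes described here are 5 genes of DNA mismatch repair, *msh3*, *msh6*, *mlh3*, *pms1* and *pms2*. They were chosen by name, and each name matched 1 of the 27420 genes listed in the deposited tables. Their RNA was measured in PEF, an embryonic fibroblast line of the Pachón cavefish population of *Astyanax mexicanus*, and in SEF, the corresponding line of surface fish. The labels give the genotype of both lines as WT, and no treatment is stated for the sequenced cells. Each line was grown from a clone isolated from dissociated embryos and kept for many passages, and 3 libraries at similar passage numbers were sequenced per line. Nothing in the labels says that the libraries of a line came from separate derivations, so the p-values measure the spread between these libraries, not between animals or clones, and the populations cannot be told apart from the single lines that represent them.

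Mismatch repair removes the wrong bases and small loops that DNA polymerases leave behind. Proteins of the MutS family recognize the mismatch, with MSH6 as the distinctive subunit of the complex MutSα, which binds single mispaired bases and short loops, and MSH3 as the distinctive subunit of MutSβ, which binds larger insertion and deletion loops. Proteins of the MutL family then join, of which PMS2 and MLH3 carry an endonuclease that nicks the new strand, while PMS1 lacks this activity and its role in repair is less clear. EXO1 removes the nicked strand, RPA covers the exposed single strand, the sliding clamp PCNA and its loader RFC direct the polymerases that fill the gap, and LIG1 seals it.

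The libraries held 36790663 to 42506026 reads on genes in PEF and 33381563 to 39156850 in SEF. Counts were compared by the quasi-likelihood test of edgeR, adjusted by the Benjamini-Hochberg method. By this test 63.5% of the 16670 tested genes differed between PEF and SEF at an adjusted p under 0.05, 30.4% higher and 33.1% lower in PEF, which is the background for every count below. Of 10 measured fibroblast markers, 8 reached 1 TPM (transcript abundance corrected for transcript length and library size) in all PEF libraries and 9 in all SEF libraries, with summed levels of 8893 to 15143 TPM in PEF and 8448 to 11830 TPM in SEF. Summed epithelial markers lay at 331 to 1485 TPM in PEF and 698 to 1030 TPM in SEF, and the highest of them was the keratin gene *krt4*, with means of 778 TPM in PEF and 915 TPM in SEF. Summed muscle markers lay at 30.3 to 44.5 TPM in PEF and 156 to 317 TPM in SEF. The highest was *acta1b*, with means of 37.9 TPM in PEF and 234 TPM in SEF. Of 4 measured muscle markers, 1 reached 1 TPM in all PEF libraries and 1 in all SEF libraries. Endothelial markers summed to 38.8 to 42.7 TPM in PEF and 98.7 to 141 TPM in SEF. Highest of these over the 6 libraries was *kdrl*, with means of 15.6 TPM in PEF and 80.0 TPM in SEF. Neural markers summed to 5.02 to 5.32 TPM in PEF and 8.05 to 25.1 TPM in SEF. Highest over the 6 libraries was *gfap*, with means of 0.787 TPM in PEF and 16.1 TPM in SEF. Pigment markers summed to 5.61 to 13.5 TPM in PEF and 1.23 to 2.66 TPM in SEF. Their highest gene, TYR, had means of 8.28 TPM in PEF and 1.18 TPM in SEF. Blood markers stayed at or under 0.23 TPM in PEF and 0.48 TPM in SEF, and 2 of the 3 measured had no read in any library. Whether these sums mark such cells, and the part of such cells in the results below, was not tested.

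All 5 genes passed the filter on low counts, and 3 differed between the lines, *msh3* higher and *msh6* and *mlh3* lower in PEF. This share of 60% lay near the background of 63.5% and is no result about the group. The calls went in opposite directions within the MutS pair. In these bulk samples, fewer cells expressing a gene and less of its RNA per cell cannot be told apart.

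**Figure D1:**
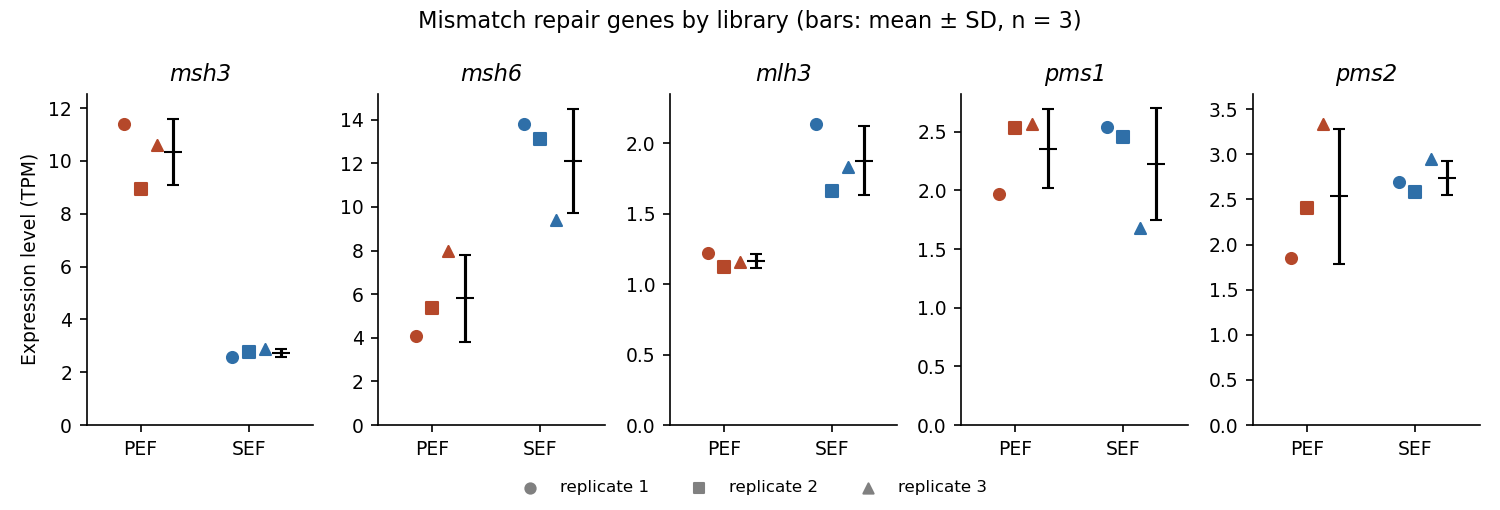
Expression of the 5 genes in each library, in TPM, with PEF left of SEF; symbols mark the replicate and bars the mean ± SD of 3 libraries. *msh3* lies between 8.95 and 11.4 TPM in PEF and between 2.58 and 2.87 TPM in SEF, while *pms1* and *pms2* overlap between the lines.

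*msh3*, the MutSβ gene (ENSAMXG00000008122), was expressed at 11.4, 8.95 and 10.6 TPM in PEF replicates 1, 2 and 3, against 2.58, 2.77 and 2.87 TPM in SEF replicates 1, 2 and 3. Every PEF library was above every SEF library, as the libraries of the lines were separate for 70.8% of all tested genes. The reads behind these levels numbered 807, 789 and 856 in PEF and 182, 209 and 231 in SEF. The mean ± SD of 3 libraries was 10.3 ± 1.25 TPM in PEF and 2.74 ± 0.147 TPM in SEF. In PEF *msh3* stood at or above 75.2% of all listed genes, and in SEF at or above 57.3%. Its log2 fold change, PEF over SEF, was 1.99 (standard error 0.12, 95% confidence interval 1.71 to 2.27, edgeR adjusted p = 1.49e-05), a level 3.97-fold higher in PEF. A log2 fold change of this size or above was found for 7.88% of the tested genes. The call held in all 15 alternatives, with log2 fold changes between 1.59 and 2.06.

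*msh6*, the MutSα gene (ENSAMXG00000001143), moved the other way. Its level was 4.08, 5.37 and 7.96 TPM in PEF, against 13.8, 13.1 and 9.40 TPM in SEF, on 109, 197 and 281 reads in PEF and 378, 422 and 315 reads in SEF. The lines did not overlap, but PEF replicate 3 and SEF replicate 3 lay close together. The mean ± SD of 3 libraries was 5.80 ± 1.98 TPM in PEF and 12.1 ± 2.38 TPM in SEF. The log2 fold change was −0.93 (standard error 0.31, 95% confidence interval −1.66 to −0.21, edgeR adjusted p = 0.0319), which is a level 1.91-fold higher in SEF. The call depended on single libraries. It was lost without SEF replicate 1 (edgeR adjusted p = 0.0885), without SEF replicate 2 (0.0816) and without PEF replicate 2 (0.0912), while the log2 fold change stayed between −1.28 and −0.66 whichever library was left out. The call held in 10 of the 15 alternatives, and their adjusted p ranged from 0.00703 to 0.734. The highest came from the test that required a log2 change beyond 1 (glmTreat). Among the alternatives that tested for any change, the adjusted p was at most 0.0912.

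The MutS genes were not equally even among the libraries of a line. Scaled by library size, the highest PEF library exceeded the lowest by 1.15-fold for *msh3* and by 2.39-fold for *msh6*. Among SEF libraries the same spread was 1.16-fold for *msh3* and 1.38-fold for *msh6*.

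The ratio of *msh3* to *msh6* was computed within each library, where the scaling between libraries cancels. In read counts it was 7.40, 4.01 and 3.05 in PEF, against 0.481, 0.495 and 0.733 in SEF. *msh3* thus had more reads than *msh6* in every PEF library and fewer in every SEF library. In TPM, which takes transcript length into account and so compares the levels of both genes, the ratio was 2.80, 1.67 and 1.33 in PEF and 0.187, 0.211 and 0.305 in SEF. In every library the same gene had the higher value on both scales. The scales differ in that a TPM unit stood for 78.4 reads of *msh3* but 31.7 reads of *msh6*. Whether transcript length alone accounts for this was not tested, which limits the comparison of the levels of both genes. The mean log2 ratio of counts was 2.17 ± 0.66 in PEF and −0.84 ± 0.34 in SEF (SD, n = 3 each), a difference of 3.00, or 8.02-fold. A two-sided exact permutation test gave p = 0.1, the smallest p that 3 libraries against 3 allow, and 0.2 when adjusted over the 4 ratios tested. Leaving out each library in turn gave differences between 2.64 and 3.28.

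**Figure D2:**
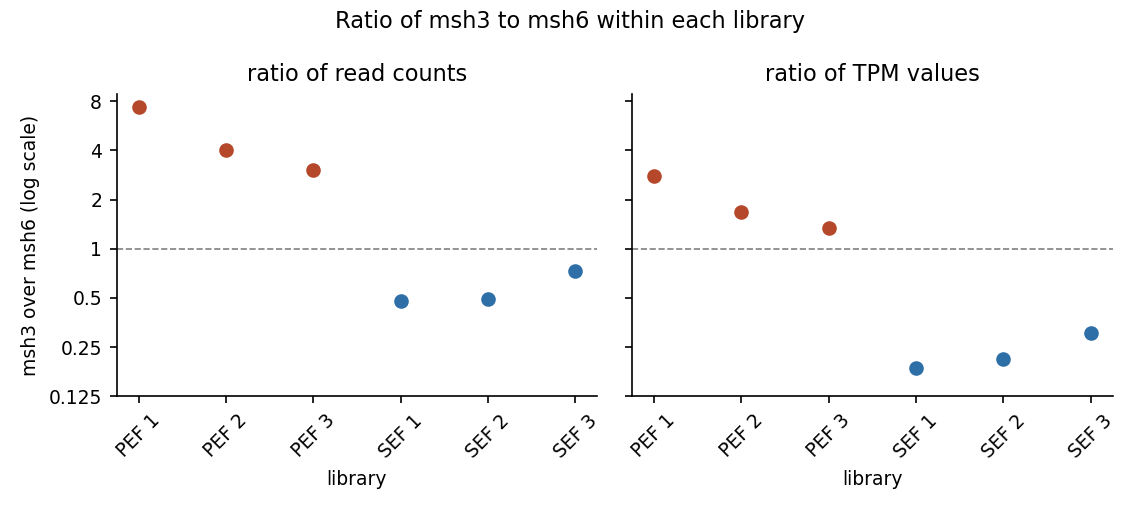
Ratio of *msh3* to *msh6* in each library on a log scale, from read counts (left panel) and from TPM values (right panel); the dashed line marks equal values. All PEF libraries lie above 1 and all SEF libraries below 1 on both scales.

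As a share of both MutS genes together, *msh3* made up 73.7%, 62.5% and 57.1% of their TPM in PEF and 15.7%, 17.4% and 23.4% in SEF. The sum of both was 15.5, 14.3 and 18.6 TPM in PEF and 16.4, 15.9 and 12.3 TPM in SEF. In TPM, the sums of the lines overlapped while the shares did not. Over all 5 genes the sum was 20.5, 20.4 and 25.6 TPM in PEF, against 23.8, 22.6 and 18.7 TPM in SEF, and these overlapped as well. Summed instead as reads scaled by library size, neither sum overlapped, and each was higher in every PEF library than in every SEF library. Such a sum does not take transcript length into account. It gives *msh3* more weight than *msh6*, since a TPM unit stood for 78.4 reads of *msh3* but 31.7 reads of *msh6*. The read sums therefore do not compare the summed levels of the lines.

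Among the MutL genes, *mlh3* (ENSAMXG00000002830) was the one that differed. The protein acts with its MutL partner in meiotic crossing over and takes a lesser part in mismatch repair. Its level was 1.22, 1.12 and 1.16 TPM in PEF, against 2.14, 1.66 and 1.83 TPM in SEF. The PEF libraries were nearly alike and all below SEF. The log2 fold change was −0.63 (standard error 0.16, 95% confidence interval −0.999 to −0.26, edgeR adjusted p = 0.0102), a level 1.55-fold higher in SEF. The call held whichever library was left out, with adjusted p-values between 0.0148 and 0.0375, and among the 15 alternatives it was lost only in a test that required a log2 change beyond 1.

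*pms2* (ENSAMXG00000007809), the endonuclease subunit of the main MutL complex of repair, had 1.85, 2.41 and 3.34 TPM in PEF and 2.69, 2.58 and 2.95 TPM in SEF. The SEF values lay inside the range of PEF. No difference was detected (log2 fold change −0.07, 95% confidence interval −0.71 to 0.56, edgeR adjusted p = 0.825). The interval leaves room for a change of up to about 0.71 on the log2 scale downward, so the lines are not shown to be alike. With 72, 118 and 151 reads in PEF, and 105, 113 and 140 in SEF, *pms2* had the fewest reads of the 5 genes in all libraries except PEF replicate 3, where *mlh3* had 149.

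*pms1* (ENSAMXG00000018711) had 1.97, 2.53 and 2.57 TPM in PEF and 2.54, 2.46 and 1.68 TPM in SEF. Replicate 1 of PEF and replicate 3 of SEF were the low ones, and the lines overlapped. Its log2 fold change was 0.19 (95% confidence interval −0.27 to 0.65, edgeR adjusted p = 0.425). Neither *pms1* nor *pms2* was called in any of the 15 alternatives.

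Ratios among the MutL genes were compared in TPM. *pms1* stood to *mlh3* at 1.61, 2.26 and 2.22 in PEF, against 1.19, 1.48 and 0.918 in SEF. The lines did not overlap, with a difference in mean log2 ratio of 0.77 (two-sided exact permutation p = 0.1, the smallest possible, and 0.2 adjusted over the 4 ratios). The ratio of *pms2* to *mlh3* was 1.52, 2.15 and 2.88 in PEF and 1.26, 1.55 and 1.61 in SEF, a difference of 0.53 with overlapping lines (two-sided exact permutation p = 0.3, adjusted 0.4). That of *pms2* to *pms1* was 0.939, 0.953 and 1.30 in PEF and 1.06, 1.05 and 1.76 in SEF, a difference of −0.25 (two-sided exact permutation p = 0.5, adjusted 0.5). The MutL genes summed to 5.04, 6.06 and 7.07 TPM in PEF and 7.37, 6.70 and 6.46 TPM in SEF, less than the MutS sum in each library.

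In TPM, the levels of the 5 genes fell in a different order in each line. In PEF *msh3* was highest, then *msh6*, and *pms2*, *pms1* and *mlh3* followed. In SEF *msh6* was highest, and *msh3* and *pms2* had the same mean of 2.74 TPM. *mlh3* was lowest in mean in both lines. Neighbors in this order that overlapped were *pms2* and *pms1* in PEF, and *msh3* and *pms2*, and *pms1* and *mlh3*, in SEF. In TPM, every SEF library had more *pms2* than any had *pms1*. The nearest values were 2.58 TPM of *pms2* and 2.54 TPM of *pms1*. Read counts gave the reverse order, with *pms2* over *pms1* at 0.469, 0.438 and 0.761 in SEF, and 0.375, 0.400 and 0.551 in PEF. Read counts do not take transcript length into account, and a TPM unit stood for 104 reads of *pms1* but 44.2 reads of *pms2*. The order in reads is therefore no order in level. Whether transcript length alone accounts for this was not tested.

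The other genes of the pathway were taken from a list of 27 names, of which 23 genes had enough reads for the test. The names *rpa3* and *pold4* of this list matched no gene, so these subunits were not measured. Of these, 12 differed between the lines (52.2%, against 63.5% of all genes). In PEF 2 were higher and 10 lower, where 30.4% of all genes were higher and 33.1% lower. The median log2 fold change of the 23 genes was −0.53, against −0.02 over all tested genes. Its sign was negative for 19 of the 23 genes, against 8490 of all 16670 tested genes. The meiotic MutS genes *msh4* and *msh5* had at most 1 and 7 reads in a library and were not tested, nor was a second copy named RPA2 with at most 4 reads.

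**Figure D3:**
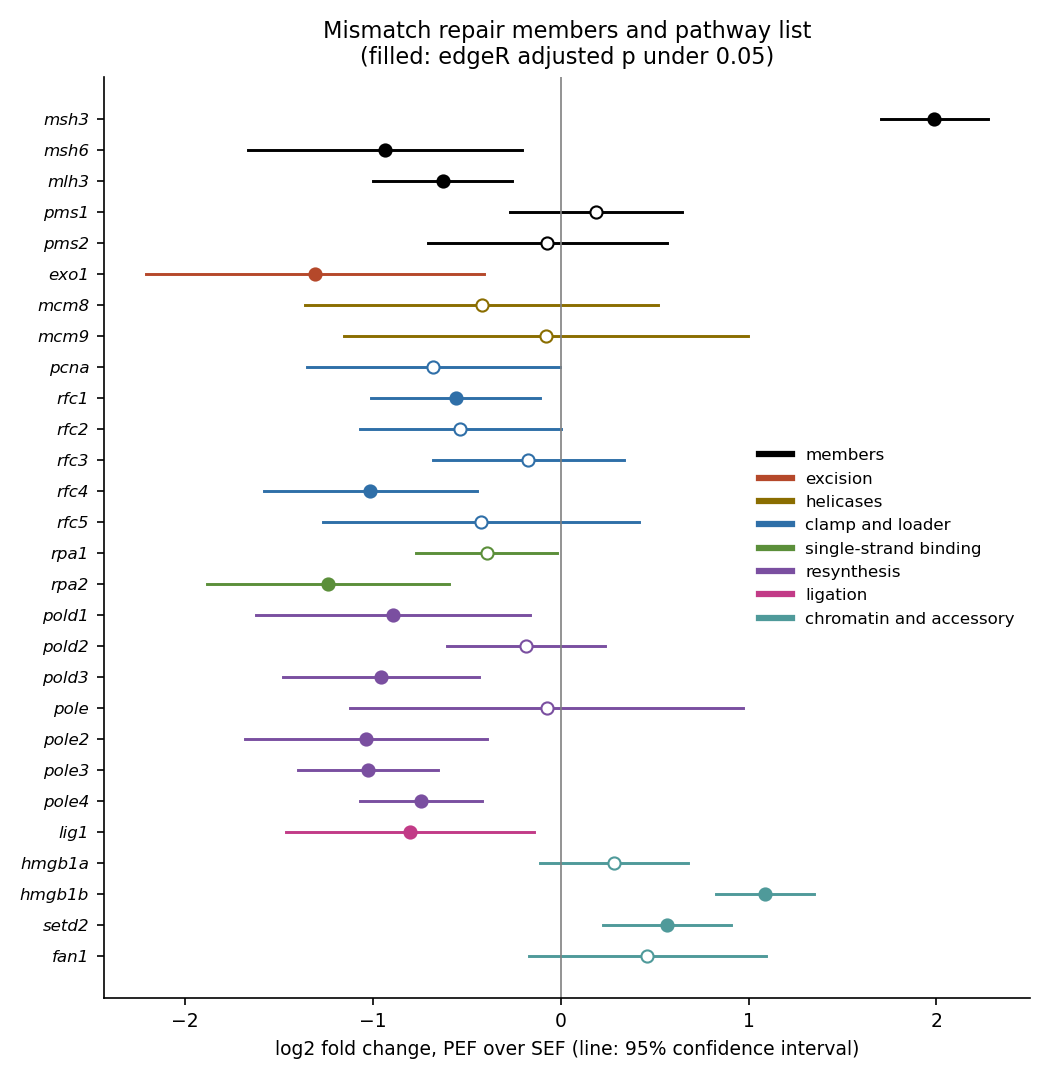
Log2 fold changes, PEF over SEF, with 95% confidence intervals for the 5 genes and the 23 tested pathway genes, coloured by role; filled symbols passed an edgeR adjusted p of 0.05. *msh3* at 1.99 lies apart on the right, while the genes of excision, synthesis and ligation lie left of 0.

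In the excision step, *exo1* was expressed at 1.58, 3.45 and 4.75 TPM in PEF, against 9.44, 9.51 and 7.09 TPM in SEF. All PEF libraries were lower, and the log2 fold change was −1.31 (standard error 0.38, edgeR adjusted p = 0.0197). *rpa2*, a subunit of the single-strand binding complex RPA, fell to 4.42, 6.27 and 8.90 TPM in PEF, against 17.6, 16.6 and 13.6 TPM in SEF (log2 fold change −1.24, edgeR adjusted p = 0.00587). Of the same complex, *rpa1* did not pass, at −0.39 on the log2 scale (edgeR adjusted p = 0.0639).

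Of the clamp and its loader, 2 of 6 genes were lower in PEF, *rfc4* at −1.01 on the log2 scale (edgeR adjusted p = 0.00802) and *rfc1* at −0.56 (0.0361). The clamp gene *pcna*, the most highly expressed of the 6, had 63.9, 85.8 and 138 TPM in PEF and 188, 176 and 144 TPM in SEF. Its log2 fold change was −0.68, with an edgeR adjusted p of 0.0737. Of the 7 polymerase subunits measured, 5 were lower in PEF. These were the subunits *pold1* at −0.89 (edgeR adjusted p = 0.0379) and *pold3* at −0.96 (0.00712) of polymerase δ, which fills the gap, and *pole2* at −1.04 (0.0129), *pole3* at −1.02 (0.00107) and *pole4* at −0.74 (0.00258) of polymerase ε. The catalytic subunit gene *pole* itself stood at −0.08 (edgeR adjusted p = 0.890). The ligase gene *lig1* was lower at −0.80 (edgeR adjusted p = 0.0391).

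The calls of *exo1*, *rfc1*, *pold1* and *lig1* were each lost without SEF replicate 1, SEF replicate 2 or PEF replicate 2, at edgeR adjusted p-values of 0.0517 to 0.106. Those of *rfc1* and *pold1* were also lost without PEF replicate 1 (0.0559 and 0.0508). When edgeR's glmTreat required a log2 change beyond 1, 0 of the 23 genes passed and 0 had an unadjusted p under 0.05, against 12 calls in the test for any change and 16 by DESeq2.

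Both genes higher in PEF belonged to the chromatin and accessory group. *hmgb1b*, 1 of a pair of genes for the DNA-bending protein HMGB1, had 179, 177 and 202 TPM in PEF, against 93.8, 86.0 and 89.6 TPM in SEF (log2 fold change 1.09, edgeR adjusted p = 0.000144). Its pair *hmgb1a* stood at 0.28 on the log2 scale (edgeR adjusted p = 0.177), and the counting could have split reads between these related genes. *setd2*, the histone methyltransferase whose mark is bound by MSH6 in human cells, had 5.31, 5.55 and 5.28 TPM in PEF, against 4.64, 3.87 and 3.16 TPM in SEF. Its log2 fold change was 0.57 (edgeR adjusted p = 0.0110). *setd2* was higher in the line in which *msh6* was lower, and a link between them was not tested. The helicase genes *mcm8* and *mcm9* and the nuclease gene *fan1* were not called, at −0.42, −0.08 and 0.46.

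Genes of proliferation were measured beside these, since many replication genes follow the share of dividing cells. The name *mki67* of this list matched no gene, and the name *ccne2* matched a pair. The 25 genes measured had a median log2 fold change of −0.92, against −0.02 over all tested genes. Of the values 23 were negative, against 8490 of all 16670 tested genes. Only 2 genes passed the test (8%, against 63.5% of all genes), both lower in PEF. They were *gins1*, a subunit of the replicative helicase, at −1.88 (edgeR adjusted p = 0.00262), the lowest of the list, and CCNE2, 1 of a pair of cyclin genes, at −1.06 (edgeR adjusted p = 0.0475). The other copy, *ccne2*, was the highest of the list at 0.22. The number of calls hung on single libraries, with 18 without PEF replicate 3, 7 without PEF replicate 1, and 1 without SEF replicate 1, SEF replicate 2 or PEF replicate 2. DESeq2 called 12 of the 25.

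Summed over the list, the level was 231, 448 and 726 TPM in PEF, against 897, 884 and 655 TPM in SEF. PEF replicate 1 stood apart as the lowest, and PEF replicate 3 lay above SEF replicate 3. PEF replicate 1 was the lowest PEF library for all 25 genes of this list and for 21 of the 23 pathway genes, against 44.8% of all tested genes. It was the lowest PEF library together with SEF replicate 3 as the lowest SEF library for 24 of 25 proliferation genes and 20 of 23 pathway genes, against 20% of all tested genes. Among the 5 mismatch repair genes this held for *msh6* and *pms1*. Like the list, *msh6* was lowest in PEF replicate 1 and highest in SEF replicate 1. Unlike the sum of the list, *msh6* was lower in PEF replicate 3 than in SEF replicate 3, at 7.96 against 9.40 TPM. Single genes of the list varied in this. Scaled by library size, 12 of the 25 had all PEF libraries below all SEF libraries, as *msh6* did. The libraries of the lines were separate, in either direction, for 70.8% of all tested genes. The part of proliferation in the difference of *msh6* was not tested. Without PEF replicate 1, *msh6* stood at −0.66 on the log2 scale and was still called (edgeR adjusted p = 0.0381). *msh3* varied little within each line, and scaled by library size it was lowest in replicate 2 of both. Without PEF replicate 1 it stood at 1.97 on the log2 scale.

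**Figure D4:**
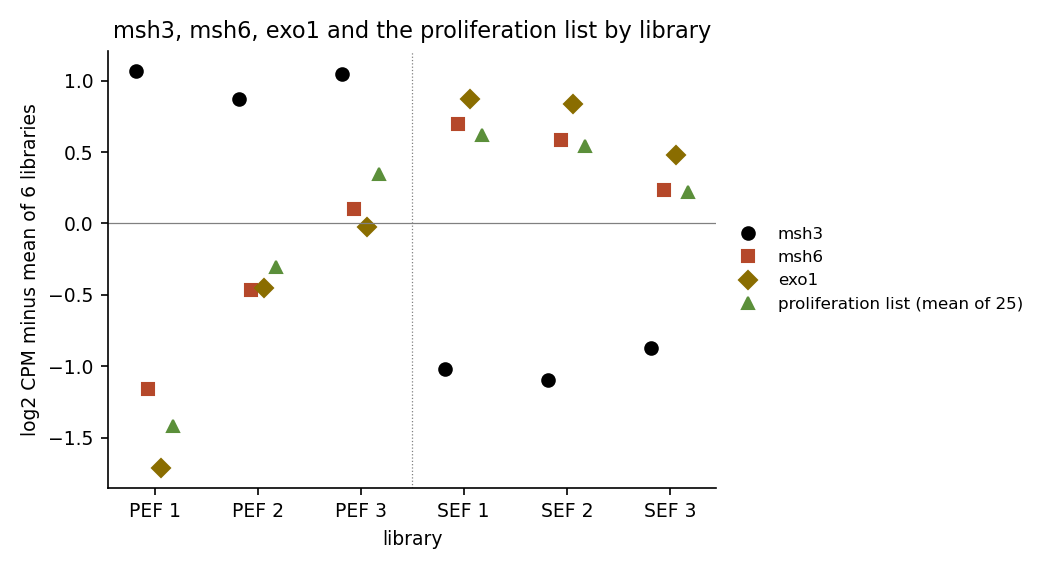
Log2 CPM (counts scaled to library size) of *msh3*, *msh6*, *exo1* and the mean of the 25 proliferation genes in each library, minus the mean of the 6 libraries. *msh6*, *exo1* and the list are lowest in PEF replicate 1 and share their order among SEF libraries, while *msh3* separates the lines with little spread within them.

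Patterns over the 6 libraries were compared by Pearson correlation of log2 CPM. Among tested genes with a name, those most like *msh6* were *cep72* (r = 0.9995), *mms22l* (r = 0.9994) and *gins4* (r = 0.9991). MMS22L acts at broken replication forks and GINS4 is a subunit of the replicative helicase. A link of *msh6* to replication through such genes was not tested. For *msh3* the nearest genes with a name were *rcn2* (r = 0.9997), *rilpl2* (r = 0.9994) and *parp9* (r = 0.9993). Among all tested genes, with or without a name, a correlation above 0.99 was found for 36 with *msh6* and for 582 with *msh3*. These values describe 6 libraries that share the difference between the lines, which by itself raises such correlations.

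In the RefSeq assembly AstMex3_surface, used only for the order of genes, the 5 genes lie on 5 chromosomes. Of 334 other tested genes on the chromosome of *msh3*, 61.7% were higher in PEF, against 30.4% of all tested genes, and 16.5% were lower. The median log2 fold change of that chromosome was 0.77, and that of *msh3* lay 1.22 above it. On the same chromosome, 41 genes had a log2 fold change at or above that of *msh3*. The chromosomes of the other 4 genes had medians from −0.07 to −0.03, so that *msh6* lay 0.90 and *mlh3* 0.58 below the median of their own chromosomes. How far the shift of its chromosome accounts for the level of *msh3* was not tested.

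**Figure D5:**
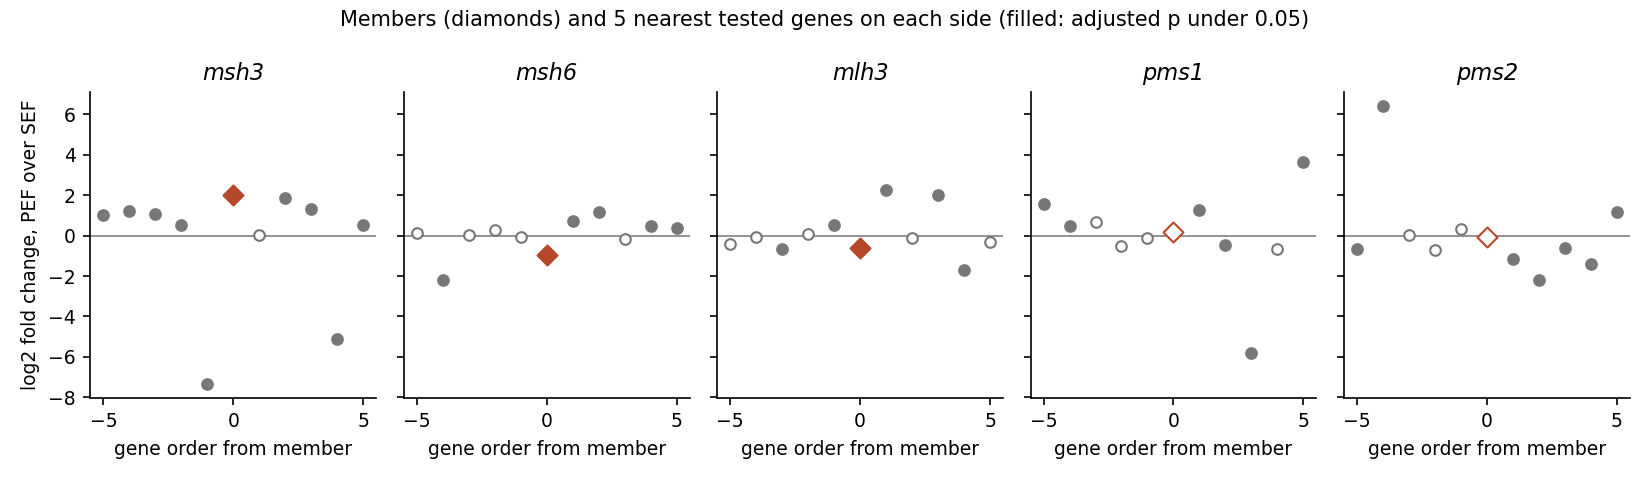
Log2 fold change, PEF over SEF, of each of the 5 genes (diamonds) and of the 5 nearest tested genes on each side (circles), in gene order; filled symbols passed an edgeR adjusted p of 0.05. Of the 10 genes around *msh3*, 7 are higher in PEF, against 4 around *msh6*. Over their whole chromosomes the shares of genes higher in PEF are 61.7% and 29.4%. The lowest circle beside *msh3* is *ckmt2b*, whose fitted value rests on PEF libraries at 0 reads and is no measured fold.

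Of the 10 tested genes nearest to *msh3*, 7 were higher and 2 lower in PEF, with a median log2 fold change of 0.79. This lay near the values of the whole chromosome, 61.7% higher and a median of 0.77. The nearest on one side, the sarcomeric mitochondrial creatine kinase gene *ckmt2b*, had no reads in any PEF library and 16, 30 and 15 reads in SEF. Set against a floor of 3 reads per library, scaled like the other counts, it was at least 6.64-fold lower in PEF. The nearest on the other side, *ubac1*, stood at 0.05 on the log2 scale (edgeR adjusted p = 0.867). Neither of these 2 genes was called higher in PEF, while 7 of the 10 neighbors were. *ckmt2b* is the nearest tested gene on its side but is not next to *msh3* in the assembly. *dhfr*, the dihydrofolate reductase gene, sits head to head with MSH3 in mammals. In AstMex3_surface it lies on the same chromosome with 156 placed tested genes between, and it did not differ (log2 fold change −0.21, edgeR adjusted p = 0.428).

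Around *msh6*, 4 neighbors were higher, 1 lower and 5 not called, where 29.4% of its chromosome was higher and 32.5% lower. Its nearest tested genes were *golga4* at −0.05 (edgeR adjusted p = 0.691) and the F-box gene *fbxo11a*, next to *msh6* in the assembly, at 0.73 (edgeR adjusted p = 0.00146). Neither was called lower in PEF. Those of *mlh3* were *ccnt1* at 0.54 (edgeR adjusted p = 0.0223) and *nckap5l* at 2.26 (0.000209), both higher in PEF, while *mlh3* was lower. Nearest to *pms1* were *ormdl1* at −0.11 (edgeR adjusted p = 0.461) and *hibch* at 1.27 (7.30e-05), and nearest to *pms2* were *rsph10b* at 0.32 (0.573) and *eif2ak1* at −1.15 (0.000661). The strand setting of the counting is not given in the sources used here, and genes that overlap a neighbor are uncertain for that reason.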

How the data were processed

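RNA of 3 PEF and 3 SEF libraries was prepared with a stranded mRNA kit. The authors deposited read counts per gene, which the submitters' processing notes credit to STAR 2.7.3a and which are not normalized. Another 4 rows for reads not assigned to a single gene, 38.8% to 41.1% of a library, were left out. The authors also deposited TPM values from RSEM, which sum to a fixed total per library. The genome build and annotation of these libraries are not given in the sources used here.

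Counts were tested in R 4.3.3 with edgeR 4.0.16 (TMM, filterByExpr, quasi-likelihood test, Benjamini-Hochberg adjustment over 16670 genes), all 6 libraries and no covariate. Standard errors and intervals were derived from the F statistic. The test was checked on simulated counts in which far fewer genes changed and all genes had the same set spread. That check does not cover a difference as broad as the one between these lines. Alternatives used DESeq2 1.42.0, limma 3.58.1 on log2 TPM, other normalizations and filters, a test requiring a log2 change beyond 1 (glmTreat), a replicate block and leaving out each library. Intervals cover these libraries only, and the floor of 3 reads covers counting error only.

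The members and lists were chosen with earlier results of these data known. Named are all members, pathway genes that passed, the extremes of the proliferation list, *dhfr* and the nearest neighbors. Also named are the 3 most similar genes of *msh3* and of *msh6*, among genes with a name. The pathway genes and neighbors that did not pass are named for contrast. Another 2 genes that the pathway list takes are not reported here. For neighbors, 11035 tested genes were placed by symbol in RefSeq AstMex3_surface, whose build may differ from that of the files.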

Additional observations from a re-analysis of the deposited data

How the results depend on the processing

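The calls of *msh3* and *mlh3* and the missing calls of *pms1* and *pms2* held in all alternatives, except that *mlh3* was lost where a log2 change beyond 1 was required. *msh6* was called in 10 of 15. The log2 fold change of *pms2* changed sign without SEF replicate 3 (0.02) and without PEF replicate 1 (0.15), and was uncalled throughout the range of −0.32 to 0.15 without a library. With a log2 change beyond 1 required, 1 of the 5 genes, 0 pathway genes, 1 proliferation gene and 5103 of all genes passed. Of the pathway genes the test for any change called 12 and DESeq2 16, and leaving out a library gave 8 to 15 (8 without SEF replicate 2 or PEF replicate 2). Leaving out a library gave 2 to 3 of the 5 genes and 9289 to 10968 of all genes. The proliferation list gave 12 calls with DESeq2, 6 with upper-quartile normalization, 6 without a filter, 13, 12 and 7 with limma on log2(TPM + 1), log2(TPM + 0.1) and unfiltered log2(TPM + 1), and 1 to 18 without a library, in place of 2. The direction of all 4 ratios held, with *pms2* over *pms1* between −0.40 and −0.0033.

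No sign was seen that the replicate numbers pair the libraries. Deviations of same-numbered libraries correlated at −0.04, 0.07 and −0.13, and only replicate 2 of PEF correlated best with its own number. With 3 libraries per line these values cannot show that equal numbers were processed apart. The replicate block gave 2 of the 5 genes, 9 pathway genes, 1 proliferation gene and 9735 of all genes, with *msh6* not called (edgeR adjusted p = 0.0575). Depth limits *pms2* most, with 72 to 151 reads a library in PEF and 105 to 140 in SEF.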
